A study of Homo sapiens with 9 samples.

Results

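Endothelial cells set vessel tone through 3 linked systems, and 10 of their genes were followed here in HMEC-1, an immortalised line of human dermal microvascular endothelial cells. The genes were EDN1, ECE1 and EDNRB of the endothelin system, NOS3, DDAH1, DDAH2 and GUCY1B3 of nitric oxide (NO) signalling, and PTGS1, PTGS2 and PTGIS of prostanoid synthesis. They were taken by symbol from the 29740 genes of the deposited RNA sequencing counts. All 10 symbols were found, 8 of them passed the filter on low counts that 14740 genes passed in all, and EDNRB and GUCY1B3 did not. The study asked how trimethylamine-N-oxide (TMAO), a metabolite that depends on gut bacteria, changes endothelial cells with time. Its 9 libraries of total RNA fall into 3 groups of 3, namely untreated HMEC-1 (CTRL), HMEC-1 given 50 µM TMAO for 24H and HMEC-1 given 50 µM TMAO for 48H. The treated cells were kept in serum-starved medium. Because the study pooled untreated cells from 24H and 48H into CTRL, a comparison of 1 treated group with CTRL cannot be told apart from a difference in time in culture. HMEC-1 is a single cell line, no animal or donor stands behind the replicates, and the labels do not say whether the 3 libraries of a group came from separate cultures. The study's methods speak of independent experiments for its data in general, without tying the libraries to them, so the p-values measure the spread between these libraries, which may be technical.

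Endothelin-1 is a vasoconstrictor peptide. Its precursor, encoded by EDN1, is trimmed by furin-type proteases and then activated by endothelin converting enzyme (ECE1), and the peptide acts on the EDNRA receptor of smooth muscle or the EDNRB receptor, which endothelial cells use to release NO and prostacyclin. Endothelial NO synthase (NOS3) makes NO from arginine, and NO relaxes smooth muscle through soluble guanylate cyclase, of which GUCY1B3 encodes the beta subunit. DDAH1 breaks down asymmetric dimethylarginine (ADMA), an inhibitor of NO synthase, and DDAH2 is its homologue. The cyclooxygenases PTGS1 and PTGS2 turn arachidonic acid into prostaglandin H2, which prostacyclin synthase (PTGIS) converts into prostacyclin, a vasodilator that also restrains platelets.

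The promoters of the endothelin ligand and of the NO synthase are printed because the RNA levels of these opposing systems are the subject of what follows. The sequences are from RefSeq (GRCh38.p14), which held 21 promoter windows for 9 of the 10 genes, each reaching from 250 bases before a transcription start to 50 bases after it. PTGIS was not matched, and GUCY1B3 was matched by its current symbol GUCY1B1. Capitals mark exact matches, on either strand, to the motifs that were searched, and the EDN1 window is chr6:12290111-12290410 and the NOS3 window chr7:150993532-150993831, both on the plus strand. EDN1 had 3 windows, and the printed one is that whose start lies nearest to the start of the gene in GENCODE 29, 2 bases from it. NOS3 had 2, with starts 22 bases apart, of which the upstream one is printed, and GENCODE 29 has a NOS3 start 2787 bases further upstream.
EDN1 promoter: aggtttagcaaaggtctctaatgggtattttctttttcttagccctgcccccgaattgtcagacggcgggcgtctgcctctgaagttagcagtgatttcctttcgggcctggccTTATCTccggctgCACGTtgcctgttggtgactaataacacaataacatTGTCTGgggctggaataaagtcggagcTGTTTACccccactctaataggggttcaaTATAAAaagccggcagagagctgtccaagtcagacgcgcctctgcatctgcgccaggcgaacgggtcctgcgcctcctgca
NOS3 promoter: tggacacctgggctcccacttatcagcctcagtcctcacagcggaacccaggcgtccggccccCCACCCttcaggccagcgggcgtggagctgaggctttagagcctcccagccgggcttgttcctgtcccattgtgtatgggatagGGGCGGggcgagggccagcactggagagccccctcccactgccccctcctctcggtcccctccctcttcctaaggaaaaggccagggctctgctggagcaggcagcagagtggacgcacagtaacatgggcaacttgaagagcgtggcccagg

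The EDN1 window held a TATA box, TATAAA, 31 bases before the start, and TATAAA was present on either strand in 11.5% of all 35116 windows. It also held the forkhead motif TGTTTAC (3.42% of windows), the GATA motif AGATAA read on the opposite strand as TTATCT (10.3%), the SMAD motif CAGACA read as TGTCTG (16.9%) and the hypoxia response core ACGTG read as CACGT (21.4%). The NOS3 window held no TATAAA. It held the Sp/KLF motif GGGCGG, present in 45% of windows, 103 bases before the start, and the KLF motif CCACCC, present in 34.3%, 187 bases before it. The other motifs searched in each window were the AP-1 site TGACTCA (4.95% of windows), the cAMP response element TGACGTCA (1.85%) and its core TGACG (24.6%), which lies inside the full element, and the NF-kB motifs GGGACTTTC (0.387%) and GGGAATTTC (0.316%), and none of these was found in the EDN1 or the NOS3 window printed. The other EDN1 windows held no TATAAA, the most upstream one having GGGCGG and 2 matches to the hypoxia response core and the next one TGACG, and the other NOS3 window had 1 more CCACCC. The windows to print were chosen with the sequences in view. Only exact strings were searched, so sites that differ from them by a base would be missed. The matches describe sequence, not factor binding.

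The libraries held between 25205756 and 36927373 estimated counts. TMAO 24H replicate 1 stood apart, since genes of ribosomal RNA took 31.5% of its counts, where the other 8 gave them 1.64% to 7.46%, and 25286320 counts remained in it once they were set aside. The label of the line was checked against marker genes. CDH5, the cadherin of endothelial junctions, had a mean normalised count (a count scaled to the mean library size) of 21255 ± 1860 (SD, n = 3) in CTRL, and all 17 endothelial markers passed the filter. Of 10 leukocyte markers 2 passed the filter, CD68 with 600 ± 43.2 normalised counts in CTRL and CD14 with 34.1 ± 5.03. The leukocyte markers CD3E and MS4A1 were at 0 in all 9 libraries, and PTPRC had at most 3.03 normalised counts. Of 10 fibroblast markers 6 passed. The collagens COL1A1, with 20659 ± 1440 in CTRL, COL1A2, with 8997 ± 962, and COL3A1, with 1025 ± 97.5, were the most abundant, PI16 had 151 ± 14.2 and FAP 115 ± 12.6, while DCN and LUM had at most 2 raw counts in a library and DPT was at 0 throughout. All 10 epithelial and keratinocyte markers passed the filter, and 7 of them (EPCAM, CDH1, KRT5, KRT14, ESRP1, GRHL2 and CLDN4) were lower in TMAO 48H replicate 3 than in any other library, while KRT8, KRT18 and KRT19 were not. EPCAM had 38.0 normalised counts there and 202 to 290 in the other libraries, and CLDN4 had 94.5 against 267 to 394. For the basal keratins this library had 126 normalised counts of KRT5 and 68.0 of KRT14, while the other TMAO 48H libraries had 1473 and 1120 of KRT5 and 1022 and 802 of KRT14.

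Per kilobase of transcript, ECE1 and EDN1 were the most abundant of the 10 genes and the receptor genes EDNRB and GUCY1B3 the least. In CTRL the mean normalised count per kilobase was 4770 for ECE1 and 3194 for EDN1. DDAH2 followed at 1577 and DDAH1 at 1120. NOS3 was lower, at 121, and PTGIS lower again, at 49.6. PTGS1 had 7.61 and PTGS2 3.32 normalised counts per kilobase, so both cyclooxygenase RNAs stood well below prostacyclin synthase. The ranges of the 3 CTRL libraries did not overlap between any neighbours in this order down to PTGS2. EDNRB, at 0.446, and GUCY1B3, at 0.212, overlapped each other. Transcript lengths are those of the longest protein-coding transcript in GENCODE 29, which may not be the annotation behind the counts, so the order rests on that choice.

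**Figure D1:**
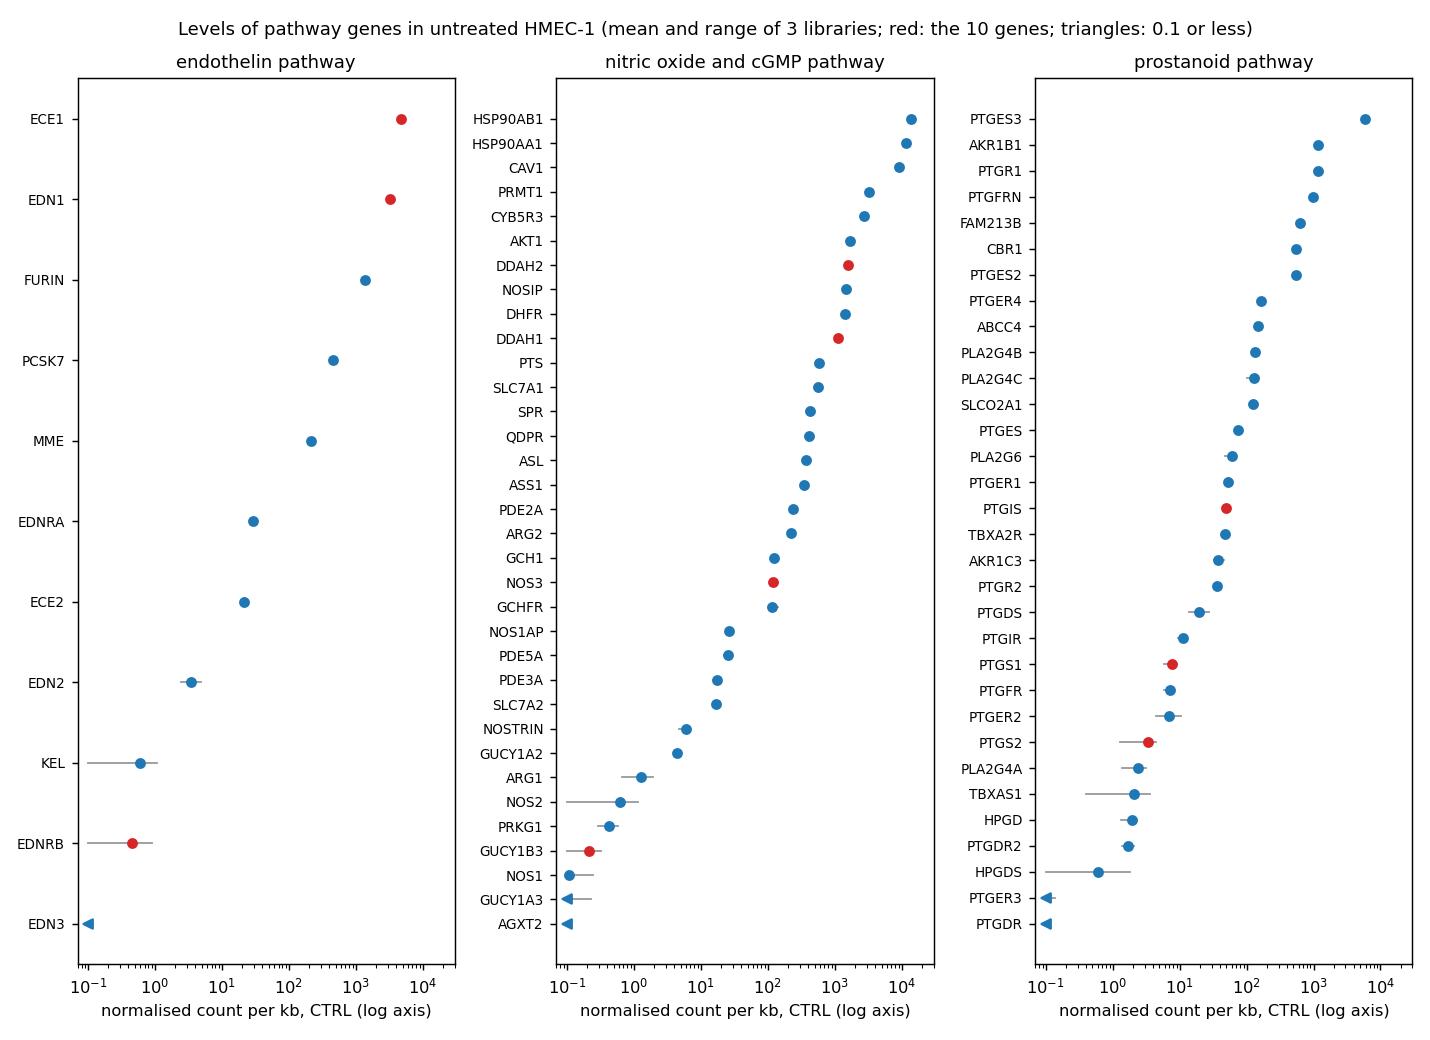
Mean normalised count per kilobase (log axis) of the listed endothelin, NO and prostanoid genes in the 3 CTRL libraries, with a line for the lowest and highest library; the 10 genes are red and triangles mark means of 0.1 or less. ECE1 (4770) and EDN1 (3194) head the endothelin list, NOS3 (121) lies in the middle of the NO list, and EDNRB (0.446) and GUCY1B3 (0.212) lie near the bottom of theirs.

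After 24H of TMAO the ligand gene EDN1 was downregulated, and it was the only one of the 8 tested genes to pass. EDN1 had 6595, 6801 and 6082 normalised counts in the CTRL libraries and 5302, 4521 and 4761 in the TMAO 24H libraries. All 3 treated libraries lay below all 3 controls. The mean fell by 25.1%, from 6492 ± 370 to 4861 ± 400 (SD, n = 3 each), a log2 fold change of −0.42 (SE 0.07) with an adjusted p of 0.0455 in edgeR's quasi-likelihood test. The study also asked a fold change of a gene and wrote it in 2 forms. EDN1 stayed short of a 1.4-fold change (0.485 on the log2 scale) and was past a log2 fold change of 0.4. Over all genes, 0.095% passed in either direction at 24H, 0.095% were lower and 0% higher, 0.0475% passed with a 1.4-fold change and 0.0678% with a log2 fold change of 0.4. Before adjustment, 408 higher and 659 lower genes of the 14740 tested had a p under 0.05 at 24H. DESeq2 put 55 genes under an adjusted p of 0.05, 3 of them higher. The endothelial secreted factor VWF moved beside EDN1, from 3384 ± 279 in CTRL to 2535 ± 164 at 24H (adjusted p 0.0822, not passing). None of the 17 endothelial markers, VWF among them, passed at 24H. Their median log2 fold change was −0.07, with 4 higher and 13 lower. An unadjusted p under 0.05 was found for 2 of the 17, beside the 408 higher and 659 lower of all 14740 tested genes. The part of the movement of VWF in the EDN1 result was not tested.

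The call on EDN1 at 24H was a narrow one. It was lost when CTRL replicate 1, 2 or 3 was left out, with adjusted p-values of 0.218, 0.386 and 0.0533. It was also lost without TMAO 24H replicate 2 (0.292) or 3 (0.128), and it was kept (0.0207) without TMAO 24H replicate 1, the library rich in ribosomal RNA. RLE factors (0.0511), the older quasi-likelihood fit (0.0593), the trended dispersion (0.0589) and the replicate block (0.174) lost it as well. Over 15 alternatives its log2 fold change ran from −0.48 to −0.37 and its adjusted p from 4.67e-06, with DESeq2, to 0.386.

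**Figure D2:**
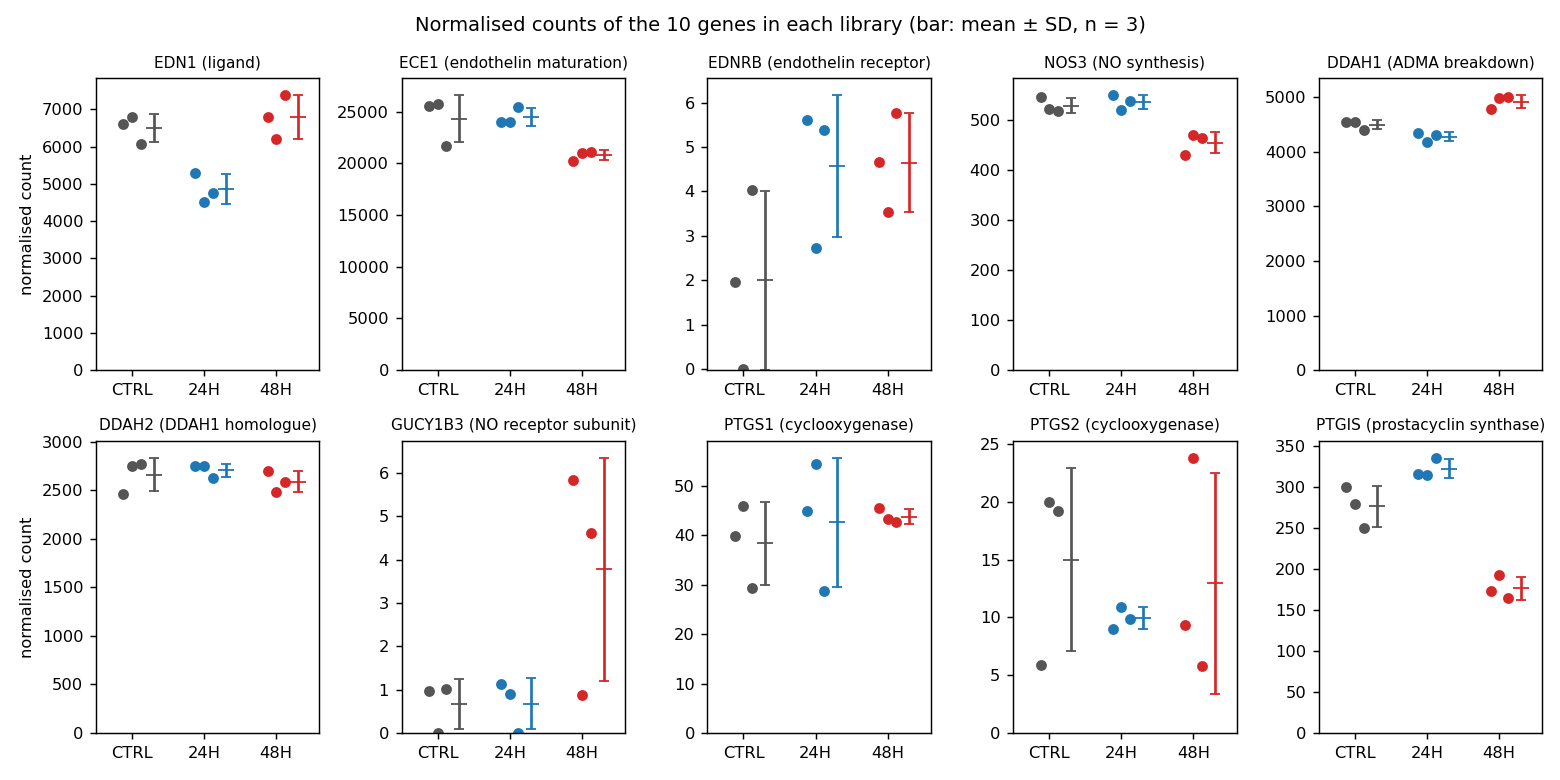
Normalised count of each of the 10 genes in every library (points), with the mean ± SD of the 3 libraries of a group beside them; each panel has its own linear axis. EDN1 is low at 24H (4521 to 5302), PTGIS is low at 48H (165 to 192), and EDNRB and GUCY1B3 stay at 6 counts or fewer.

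The other 7 tested genes did not pass at 24H. NOS3 had 547, 524 and 518 normalised counts in CTRL and 550, 521 and 538 at 24H, which overlapped. Its log2 fold change was 0.02 with a 95% interval of −0.12 to 0.16, which leaves out larger changes of NOS3 RNA in either direction. ECE1, the activating enzyme, had 24324 ± 2290 in CTRL and 24504 ± 860 at 24H, with an interval of −0.12 to 0.15. DDAH2 had 2662 ± 174 and 2708 ± 66.4. DDAH1 and PTGIS did not overlap between the groups. DDAH1 was at 4403 to 4550 in CTRL and 4185 to 4337 at 24H (log2 fold change −0.07, adjusted p 0.731). PTGIS was at 250 to 300.3 in CTRL and 315 to 336 at 24H (0.22, adjusted p 0.674). With EDN1 these are 3 of 8 genes whose groups were separate at 24H, where 14.2% of all tested genes were. The median log2 fold change was 0.01 over the 8 genes and −0.000421 over all genes.

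After 48H the prostacyclin synthase gene PTGIS and the endothelin converting enzyme gene ECE1 were lower than in CTRL and DDAH1 was higher, so 3 of 8 genes (37.5%) passed. Over all genes 10.4% passed at 48H in either direction, 5.13% higher and 5.29% lower, and with 8 genes each one moves the share by 12.5 points. The median log2 fold change was −0.09 over the 8 genes and 0.00396 over all genes. ECE1, NOS3, DDAH1 and PTGIS, 4 of 8, had groups that did not overlap, against 27.8% of all tested genes.

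PTGIS had the largest change at 48H among the 8 tested genes. It had 300.3, 280 and 250 normalised counts in CTRL and 174, 192 and 165 at 48H. Every 48H library lay below every control and every 24H library. The mean went from 277 ± 25.2 to 177 ± 14.0 (SD, n = 3 each), and the fit gave a fall of 36.0%, with a log2 fold change of −0.64 (SE 0.10) and an adjusted p of 0.00146. PTGIS was also the only one of the 8 genes to pass with a 1.4-fold change or with a log2 fold change of 0.4 at 48H, as 1.8% and 2.54% of all tested genes did. Its call held under all 15 alternatives, with adjusted p-values from 4.36e-05 to 0.0093.

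In the endothelin system at 48H the ligand gene did not pass and the converting enzyme gene was lower than in CTRL. EDN1 had 6783, 6204 and 7385 normalised counts at 48H, overlapping CTRL, and its log2 fold change was 0.06 with an interval of −0.08 to 0.21 (adjusted p 0.608). ECE1 had 25525, 25764 and 21683 in CTRL and 20224, 20959 and 21145 at 48H. The groups were separate, but CTRL replicate 3 lay close to the treated libraries. ECE1 fell by 14.6% on the mean, to 20776 ± 487, with a log2 fold change of −0.23 (SE 0.06) and an adjusted p of 0.0355. Among other settings, the call was lost without CTRL replicate 1 or 2 (0.124 and 0.142), without TMAO 48H replicate 1, 2 or 3 (0.0738, 0.0971 and 0.0507) and with only these groups in the fit (0.0646), and it was kept without CTRL replicate 3 (0.00144).

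In the NO system, DDAH1 passed with a small increase and NOS3 narrowly missed the threshold, and both lay close to it. DDAH1 had 4550, 4542 and 4403 normalised counts in CTRL and 4784, 4984 and 5000 at 48H, so that all treated libraries were the higher ones. The mean of DDAH1 rose by 9.42%, to 4922 ± 120, with a log2 fold change of 0.13 (SE 0.04) and an adjusted p of 0.0430. This call was lost without CTRL replicate 1, 2 or 3 (0.0822, 0.0951 and 0.0967) and without TMAO 48H replicate 2 or 3 (0.138 and 0.0949), and kept without TMAO 48H replicate 1 (0.0287). Other settings that lost it were no expression filter (0.0813), only these groups in the fit (0.119) and, among others, the ribosomal RNA genes removed (0.0514), where NOS3 passed (0.0441). NOS3, the enzyme that makes NO, had 431, 470 and 464 normalised counts at 48H, all below the CTRL range of 518 to 547. Its log2 fold change was −0.22 (SE 0.07) with an adjusted p of 0.0505, which did not pass, and 5 of 15 alternatives put it under 0.05. DDAH2 had 2694, 2480 and 2588, with an interval of −0.15 to 0.07 around a log2 fold change of −0.04.

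The endothelial marker genes were lower in the same libraries. Their summed normalised count was 99134 to 109710 in CTRL, 98184 to 104478 at 24H and 87264 to 94527 at 48H, with CDH5 the most abundant. At 48H, 10 of the 17 markers were lower and 1 higher at an adjusted p under 0.05, which is 64.7% beside 10.4% of all tested genes. CDH5 had 17722 ± 921 at 48H, with a log2 fold change of −0.26 (adjusted p 0.0181), close to the −0.23 of ECE1 and the −0.22 of NOS3. PTGIS had −0.64, and the differences between these genes were not tested. In the fibroblast list 4 of 6 tested markers (66.7%) were lower at 48H, beside 5.29% of all tested genes, COL1A1 with 12949 ± 632 (log2 fold change −0.67), COL1A2 (−1.08), FAP (−0.72) and PI16 (−1.88), and the summed count was 17650 to 19255 against 28098 to 32819 in CTRL. Among the 10 tested smooth muscle and pericyte markers 3 were higher and 1 lower (40% beside the same 10.4%), with a summed count of 11787 to 12515 against 11561 to 12152. KRT18 was the only one of 10 epithelial markers (10%) to pass at 48H, where it was lower, and of the 2 leukocyte markers tested none passed by edgeR and none had an unadjusted p under 0.05. The part of these marker movements in the results for ECE1, NOS3 and PTGIS was not tested. In bulk RNA a smaller share of cells expressing a gene and less RNA of that gene per cell cannot be told apart.

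The cyclooxygenase genes had low counts, with 29 to 60 raw counts of PTGS1 and 5 to 27 of PTGS2 per library. PTGS1 had 40.0, 45.9 and 29.3 normalised counts in CTRL, 44.9, 54.5 and 28.7 at 24H and 45.5, 43.2 and 42.6 at 48H. The groups overlapped, and the interval of its log2 fold change at 48H was −0.36 to 0.73. PTGS2, the inducible cyclooxygenase, had 5.85, 19.9 and 19.2 in CTRL, 8.98, 10.9 and 9.86 at 24H and 9.33, 23.8 and 5.76 at 48H. A single library was high at 48H and a single one low in CTRL, and the interval ran from −1.27 to 0.99. Changes of either cyclooxygenase RNA within these intervals cannot be told from no change here. EDNRB had 2, 0 and 4 raw counts in CTRL, 5, 3 and 6 at 24H and 4, 4 and 5 at 48H. GUCY1B3 had 1, 0 and 1 in CTRL, 1, 1 and 0 at 24H and 5, 1 and 4 at 48H. A floor of 3 counts corresponds to 2.65 to 3.50 normalised counts per library, so most of these values lie at or near it and no fold change is given. The floor covers counting error only, whereas the intervals of the log2 fold changes include the spread between libraries.

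**Figure D3:**
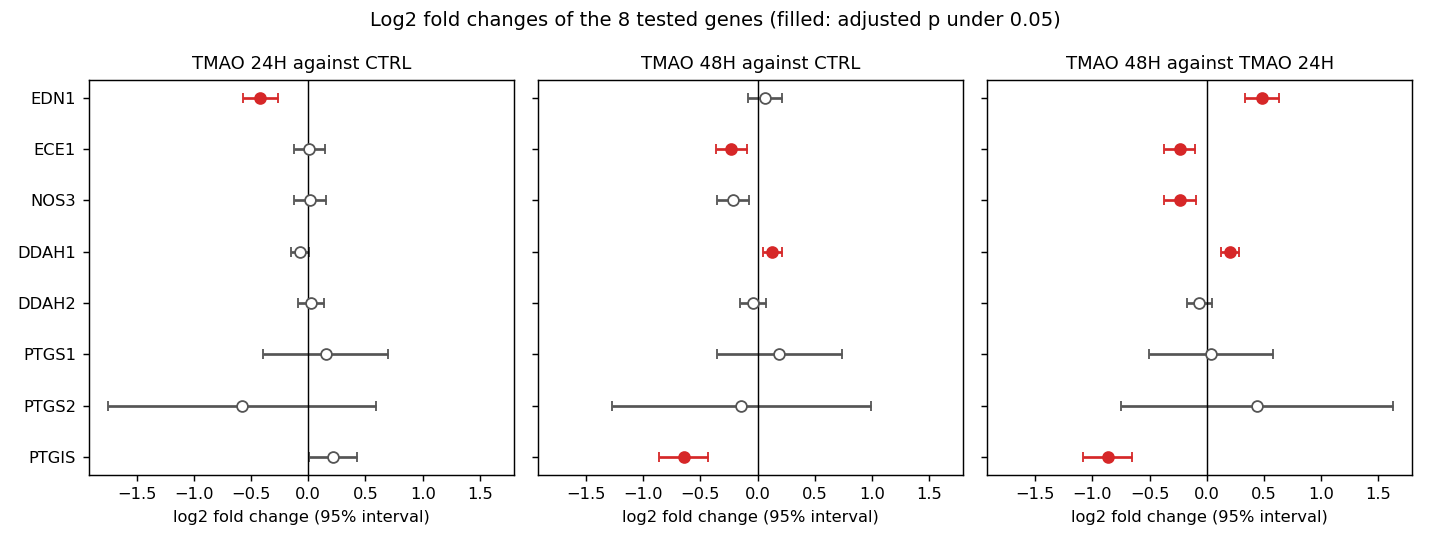
Log2 fold change (point) with its 95% interval (bar) of the 8 tested genes in the 3 comparisons; filled red points have an adjusted p under 0.05. EDN1 is negative at 24H (−0.42) and near 0 at 48H (0.06), PTGIS is at −0.64 at 48H, and the wide bars of PTGS1 and PTGS2 go with their low counts.

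The difference between the time-points was tested directly, TMAO 48H against TMAO 24H, in the fit of all 9 libraries, controls included. With no control of its own for each time-point, the longer treatment cannot be told apart here from the longer time in culture. In this comparison 5 of 8 genes (62.5%) passed, against 7.52% of all tested genes, of which 3.77% were higher and 3.76% lower at 48H. EDN1 and DDAH1 were higher at 48H, and ECE1, NOS3 and PTGIS were lower. These 5 were also the genes whose groups did not overlap, as was so for 27.6% of all genes. The median over the 8 genes was −0.01 and over all genes 0.00399.

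EDN1 rose by 39.7% from 24H to 48H, with a log2 fold change of 0.48 (SE 0.07) and an adjusted p of 0.00074. The lowest 48H library, at 6204, lay above the highest 24H library, at 5302. PTGIS fell by 45.1% in the fit, with a log2 fold change of −0.87 (SE 0.10) and an adjusted p of 0.000119, and it alone of the 8 passed with a 1.4-fold change, as 1.7% of all genes did. With a log2 fold change of 0.4, EDN1 and PTGIS passed and 2.49% of all genes. DDAH1 had a log2 fold change of 0.20 (SE 0.04, adjusted p 0.00456). The calls on EDN1, PTGIS and DDAH1 held under all 15 alternatives. ECE1 (−0.24, adjusted p 0.0346) and NOS3 (−0.24, adjusted p 0.0434) passed with little to spare. NOS3 lost its call with DESeq2, the tool of the study (0.0695), with no expression filter (0.0554) and with only these groups in the fit (0.0553), among other settings. Each of these 2 calls was lost when any 1 of the 6 libraries compared was left out, with adjusted p-values up to 0.145 for ECE1 and 0.138 for NOS3. Without TMAO 24H replicates 1, 2 and 3 and then TMAO 48H replicates 1, 2 and 3, ECE1 had 0.0600, 0.0792, 0.145, 0.0732, 0.0981 and 0.0550, and NOS3 had 0.138, 0.0816, 0.125, 0.111, 0.0804 and 0.0624.

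Other genes of the endothelin system were read from a list of 11, of which 7 were tested. For genes of the lists, a call kept or lost without a library is read over the 6 compared libraries left out in turn. At 24H only EDN1 of the 7 passed, beside 0.095% of all tested genes. EDN1 and MME had an unadjusted p under 0.05, beside 408 higher and 659 lower of all 14740 tested genes. At 48H MME was higher and ECE1 and FURIN were lower, 42.9% of the 7 beside 10.4% of all tested genes. Over the 7 the median log2 fold change was −0.17, and 1 of the 3 calls was left without CTRL replicate 1, without CTRL replicate 2 or without TMAO 48H replicate 2. MME encodes neprilysin, which degrades endothelin-1 and other vasoactive peptides. It had 1246, 1235 and 1121 normalised counts in CTRL, 1471, 1302 and 1345 at 24H and 1758, 1808 and 1716 at 48H. The 3 groups of MME did not overlap, and its log2 fold change was 0.55 at 48H (SE 0.06, adjusted p 9.37e-05) and 0.19 at 24H (adjusted p 0.490). FURIN, a protease of the ligand precursor, went from 5955 ± 114 in CTRL to 5286 ± 186 at 48H (log2 fold change −0.17, adjusted p 0.0180), a call lost without CTRL replicate 1 (0.0505), CTRL replicate 2 (0.0776) or TMAO 48H replicate 2 (0.0869). The receptor gene EDNRA did not pass, with 122 ± 10.9 in CTRL and 98.7 ± 2.42 at 48H. Per kilobase it had 29.3 normalised counts in CTRL, against 0.446 of EDNRB. EDN3 was at 0 in all 9 libraries and EDN2 had at most 9 raw counts.

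Of 34 listed genes of NO and cyclic GMP signalling 27 were tested. None passed at 24H by edgeR or by DESeq2. Before adjustment 1 of the 27 had a p under 0.05, beside 408 higher and 659 lower of all 14740 tested genes. After 48H 2 genes passed as higher and 4 as lower, 22.2% of the 27 beside 10.4% of all tested genes, the median of the list being −0.03 on the log2 scale, and from 24H to 48H there were again 2 higher and 4 lower, 22.2% beside 7.52% of all tested genes. Of the 6 calls at 48H, 3 were left without CTRL replicate 1, 2 or 3 and 2 without TMAO 48H replicate 2. Among the genes that supply arginine, ASS1, which makes argininosuccinate in the recycling of citrulline, had 690, 748 and 635 normalised counts in CTRL and 492, 459 and 386 at 48H. Its groups were separate, with a log2 fold change of −0.63 (SE 0.09, adjusted p 0.000966). The cationic amino acid transporter SLC7A2 was lower as well, at 81.4 ± 7.68 against 128 ± 2.79 (−0.66, adjusted p 0.0115, and 0.0608 without TMAO 48H replicate 2). The abundant transporter SLC7A1 did not pass.

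Caveolin-1, which binds and restrains NOS3, was lower too. CAV1 had 29543, 28799 and 28219 normalised counts in CTRL, 30979, 29325 and 30047 at 24H and 23867, 22329 and 23021 at 48H, with a log2 fold change of −0.32 at 48H (SE 0.05, adjusted p 0.00109). GCH1, the rate-limiting enzyme for the NO synthase cofactor tetrahydrobiopterin, was higher at 469 ± 31.2 against 371 ± 23.1 (0.34, adjusted p 0.0357). With the 6 libraries left out in turn, the GCH1 call held only without TMAO 48H replicate 3, and the adjusted p reached 0.129. PDE2A, a phosphodiesterase that cyclic GMP stimulates, was lower at 926 ± 14.6 against 1041 ± 27.8 (−0.17, adjusted p 0.0472), and it lost its call without any 1 of these libraries (up to 0.137) and with DESeq2 (0.0697), no expression filter (0.0706) or only these groups in the fit (0.0901), among other settings. From 24H to 48H, PDE2A fell by 0.32 on the log2 scale (adjusted p 0.00144), a call kept under all 15 alternatives. The other NO synthases NOS1 and NOS2 had at most 5 raw counts in a library, and the cyclase subunit GUCY1A3 at most 1, while GUCY1A2, another alpha subunit, had 75, 74 and 64 raw counts in CTRL.

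In the prostanoid list 25 of 32 genes were tested. None passed at 24H by edgeR or by DESeq2. Before adjustment 5 of the 25 had a p under 0.05, beside 408 higher and 659 lower of all 14740 tested genes. After 48H 6 were lower and 1 was higher, which is 28% of the 25 beside 10.4% of all tested genes, and 4 of these 7 calls were left without CTRL replicate 2, TMAO 48H replicate 2 or TMAO 48H replicate 3. The median over the list was −0.06 on the log2 scale. SLCO2A1, which carries prostaglandins into cells, had 1142, 1129 and 1000 normalised counts in CTRL, 944, 1015 and 1011 at 24H and 597, 642 and 641 at 48H. The 48H libraries were all far below the others, and the log2 fold change was −0.80 (SE 0.06, adjusted p 1.53e-05). AKR1B1, an aldo-keto reductase that can form prostaglandin F2alpha, was at 1370 ± 38.4 against 1645 ± 72.2 (−0.26, adjusted p 0.00486). PTGES2, which has been described as a prostaglandin E synthase, was at 1113 ± 40.9 against 1281 ± 41.0 (−0.20, adjusted p 0.0287), and its call held only without TMAO 48H replicate 1 (up to 0.0767 otherwise). PTGDS, a prostaglandin D synthase, had 14, 22 and 11 raw counts in CTRL and 3, 5 and 2 at 48H (−2.12, SE 0.55, adjusted p 0.0261), a call kept only without CTRL replicate 3 (up to 0.111 otherwise).

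Of 4 listed phospholipase genes, whose enzymes can release arachidonic acid, 1 was lower at 48H, 1 was higher, PLA2G6 did not pass (167 ± 23.1 normalised counts against 196 ± 36.1 in CTRL, adjusted p 0.393) and PLA2G4A, with at most 9 raw counts in a library, was below the filter. PLA2G4B was at 183 ± 38.8 normalised counts at 48H against 403 ± 36.5 in CTRL (log2 fold change −1.14, adjusted p 0.000304), but it shares exons with the readthrough gene JMJD7-PLA2G4B, so its level is uncertain. PLA2G4C was at 425 ± 10.1 against 320 ± 64.0 (0.41, adjusted p 0.0470), and its call held only without CTRL replicate 1 (up to 0.136 otherwise), and it was lost with only these groups in the fit (0.0702). The prostacyclin receptor gene PTGIR did not pass in any comparison, with 23.4, 26.9 and 20.2 in CTRL and 39.3, 40.0 and 36.8 at 24H (0.71, adjusted p 0.499). Prostaglandin E synthase PTGES did not pass either, and thromboxane synthase TBXAS1 had at most 9 raw counts.

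**Figure D4:**
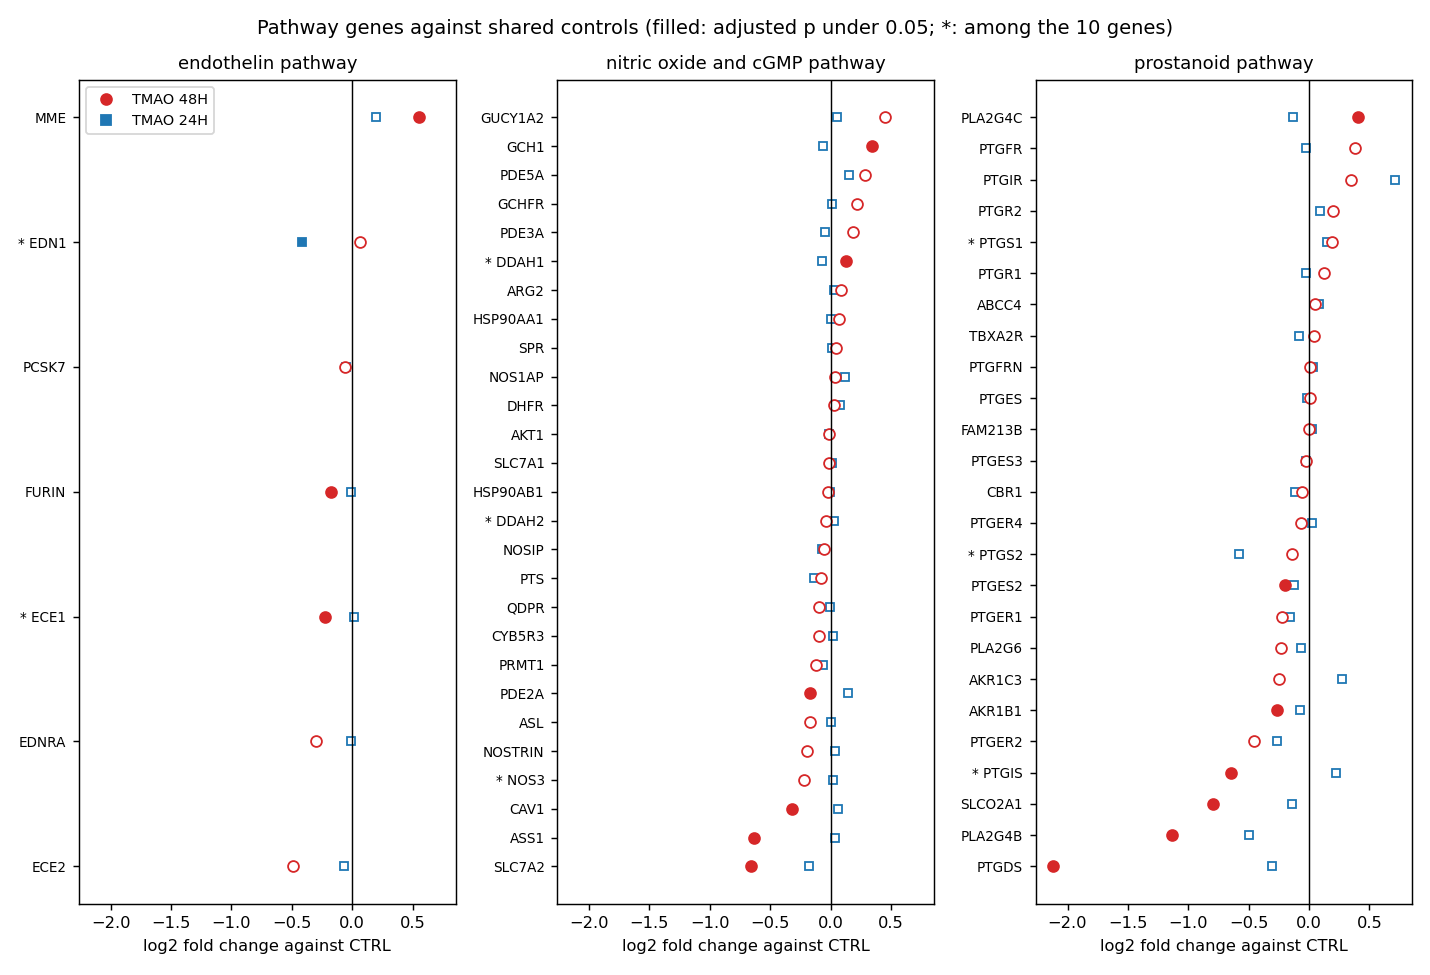
Log2 fold change against CTRL of the tested genes of the endothelin, NO and prostanoid lists at 24H (blue squares) and 48H (red circles); filled symbols have an adjusted p under 0.05, asterisks mark the 10 genes, and both time-points share the same controls. At 24H only EDN1 is filled; at 48H SLCO2A1 (−0.80), PLA2G4B (−1.14) and PTGDS (−2.12) lie furthest to the left and MME (0.55) furthest to the right among filled symbols.

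A list of 27 other vasoactive peptides and receptors, of which 15 were tested, was read beside these systems. None passed at 24H by edgeR or by DESeq2. Before adjustment 1 of the 15 had a p under 0.05, beside 408 higher and 659 lower of all 14740 tested genes. After 48H 3 genes passed as lower and none as higher, 20% of the 15 beside 10.4% of all tested genes, and the list had a median of −0.02 on the log2 scale. APLN, which encodes the vasodilator apelin, was at 6831 ± 216 against 8054 ± 80.7 normalised counts (log2 fold change −0.24, adjusted p 0.00171). NPR3, the clearance receptor of natriuretic peptides, was at 586 ± 24.0 against 797 ± 61.5 (−0.44, adjusted p 0.00206). The adenosine receptor gene ADORA2A was at 240 ± 39.3 against 322 ± 28.9 (−0.42, adjusted p 0.0469), a call kept only without TMAO 48H replicate 3 (up to 0.176 otherwise) and lost with only these groups in the fit (0.0575). NT5E, which forms adenosine, passed in the reported fit only between the time-points, at 8957 ± 155 at 48H against 10597 ± 212 at 24H (−0.24, adjusted p 0.0120, and 0.0613 without TMAO 24H replicate 3 or 0.0621 without TMAO 48H replicate 2). At 48H against CTRL it passed under 2 of 15 alternatives.

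For the genes that passed in any comparison, the 3 genes with the most similar profile were found by Pearson's r of log2 levels over the 9 libraries, among 12328 genes with a mean normalised count of at least 50. The values describe these 9 libraries, whose points share groups and depth, and carry no test. EDN1 was most like the transcription factor genes HES1 (r = 0.976) and EGR1 (0.952) and the sterol reductase gene DHCR7 (0.945). EGR1 had mean normalised counts of 2160 in CTRL, 1047 at 24H and 2550 at 48H, a dip at 24H like that of EDN1. PTGIS was most like the integrin gene ITGA4 (0.996), LIMS1 (0.994) and ADAMTS15 (0.986). ECE1 was most like the matrix genes SPARC (0.986) and PLOD1 (0.983) and TACC2 (0.979). NOS3 was most like the fibrillin gene FBN1 (0.984), F2RL1 (0.980) and MLPH (0.973), and DDAH1 most like HELZ2 (0.990), the desaturase gene FADS1 (0.984) and FBLN7 (0.983).

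In the GENCODE 29 annotation some of the genes overlap others, and the sources used here do not say whether counting used the strand. The longest overlap between an exon of NOS3 and one of ATG9B, on the opposite strand, was 208 bases. ATG9B had 13.0 to 37.2 raw counts per library against 370 to 600 of NOS3. For DDAH1 and AC092807.3, on the same strand, the longest overlap was 267, and no count of AC092807.3 was at hand. For DDAH2 and CLIC1, on the same strand, the longest overlap was 37, and CLIC1 had 8329 to 11250 raw counts, more than DDAH2. For EDNRB and RNF219-AS1, on the opposite strand, it was 80. Only the longest overlap of a pair of exons was kept, so the genes may share more bases in all. Reads over these stretches may have been given to either gene.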

How the data were processed

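RNA of 9 HMEC-1 libraries was sequenced, and the reads were processed by the authors through the nf-core RNAseq pipeline, version 3.6 (Trim Galore is named in the submitters' processing notes). The deposited values are estimated counts (expected counts) per gene symbol, not normalised; the quantifier, genome build and annotation are not given in the sources used here. They were rounded, and fitted with edgeR 4.0.16 in R 4.3.3 (filterByExpr, TMM factors, quasi-likelihood test, all 9 libraries, group as the only term). The dispersion of this fit was 0.0583, and it was 0.00239 with the ribosomal RNA genes removed. With them removed, 14, 1567 and 1156 of all genes passed at 24H, at 48H and between the time-points. P-values were adjusted by Benjamini-Hochberg over 14740 genes, and a gene passed under 0.05. An exact permutation test of 3 against 3 libraries cannot go below 0.1. Alternatives were DESeq2 1.42.0, RLE factors, no filter, at least 10 counts in every library, only the 2 groups compared, an older quasi-likelihood fit, a replicate block, ribosomal RNA genes removed, each library left out, and, chosen after seeing the data, a trended dispersion and a log2 fold change of 0.4. The edgeR steps were tested on simulated data. No 2 libraries of a group agreed within sampling noise.

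The genes, lists and tests were chosen with earlier results of these data known. Beyond the 10 genes, the text names listed pathway genes with an adjusted p under 0.05 in any comparison (at most 12 per list), 3 profile neighbours per passing gene and marker genes; listed genes named without passing were chosen after their values were seen. Normalised counts are TMM-scaled to the mean library size.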

Additional observations from a re-analysis of the deposited data

Results flagged for a closer look

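Among the 8 tested genes, the pathway genes that passed in any comparison and the markers named in the text, 23 differed between TMAO 48H and TMAO 24H (edgeR, adjusted p under 0.05). Of all 14740 tested genes 1109 did. The pathway genes were picked for passing in a comparison, this one included, so these counts cannot be compared. Duration of treatment and time in culture cannot be told apart in these differences. The log2 difference was 0.48 for EDN1, −0.24 for ECE1, −0.24 for NOS3, 0.20 for DDAH1 and −0.87 for PTGIS. In the endothelin list it was 0.36 for MME and −0.16 for FURIN. In the NO list it was −0.38 for CAV1, −0.67 for ASS1, 0.40 for GCH1 and −0.32 for PDE2A. In the prostanoid list it was −0.64 for PLA2G4B, 0.54 for PLA2G4C, −0.19 for AKR1B1 and −0.66 for SLCO2A1. Among the other vasoactive genes it was −0.29 for APLN, −0.58 for NPR3 and −0.24 for NT5E, and among the named markers 0.51 for VWF, −0.59 for COL1A1, −1.06 for COL1A2, −2.21 for PI16 and −0.85 for FAP. The full marker lists held more, with 2 higher and 7 lower of 17 endothelial, 3 higher of 10 smooth muscle and pericyte and 4 lower of 6 fibroblast markers tested, or 52.9%, 30% and 66.7% beside 7.52% of all tested genes. The calls on these 5 markers held under all 15 alternatives. Several of the other calls were lost when a library was left out. ECE1 and NOS3 lost theirs in each case, and NOS3 also with DESeq2 (0.0695). FURIN lost it without TMAO 24H replicate 1, 2 or 3 (0.0669, 0.0533 and 0.132) and TMAO 48H replicate 1 or 2 (0.0506 and 0.125), and AKR1B1 without TMAO 24H replicate 2 or 3 (0.138 and 0.108) and TMAO 48H replicate 2 or 3 (0.128 and 0.0805). GCH1 lost it without TMAO 24H replicate 1 (0.0779) or TMAO 48H replicate 2 (0.0842). PLA2G4B (0.0506 and 0.0652), PLA2G4C (0.0742 and 0.0627) and NT5E (0.0613 and 0.0621) lost it without TMAO 24H replicate 3 or TMAO 48H replicate 2. The means of EDN1 were 6492, 4861 and 6791 normalised counts in CTRL, at 24H and at 48H, and those of VWF were 3384, 2535 and 3604.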

How the results depend on the processing

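Of the 8 tested genes, PTGIS kept its side of the threshold in all 3 comparisons under every alternative, passing at 48H and between the time-points, as did DDAH2, PTGS1 and PTGS2, which never passed, under every alternative that gave a value. EDN1 and DDAH1 kept their calls between the time-points. The number of the 8 genes passing at 24H went from 1 to 0 with RLE factors, the older quasi-likelihood fit and the trended dispersion (chosen after seeing the data) and with the 1.4-fold change, and was 0 to 1 with each library left out. At 48H it went from 3 to 1 with only the 2 groups compared, to 1 with the 1.4-fold change and to 1 with a log2 fold change of 0.4 (added after seeing the data), and was 1 to 2 with each library left out; between the time-points it went from 5 to 4 with DESeq2, no filter or only the 2 groups, to 1 with the 1.4-fold change and to 2 with the log2 fold change of 0.4, and was 3 in each case with a library left out. The 14 genes passing at 24H among all genes became 55 with DESeq2, 22 with only the 2 groups compared, 7 with the 1.4-fold change, 23 at an adjusted p under 0.1 and 0 to 12 with each library left out. The 1536 at 48H became 981 with only the 2 groups, 265 with the 1.4-fold change, 374 with the log2 fold change of 0.4, 2473 under 0.1 and 700 to 1594 with each library left out, and the 1109 between the time-points became 251 with the 1.4-fold change, 367 with the log2 fold change of 0.4, 1749 under 0.1 and 558 to 1052. Libraries of the same replicate number did not deviate together (0 of 9 pairs with r over 0.1, median −0.0313, against 0.0207 in the 18 other pairs). This gave no sign of pairing by number, but r over all tested genes cannot exclude it, and the labels do not say. With the replicate block 0, 1 and 3 of the 8 genes passed at 24H, at 48H and between the time-points. Among all genes 1, 944 and 730 passed. Of the 8 genes, those that lost a call under the block were EDN1 at 24H (0.174), ECE1 (0.0872) and DDAH1 (0.102) at 48H, and ECE1 (0.0906) and NOS3 (0.0980) between the time-points; FURIN and AKR1B1 between the time-points and GCH1, PDE2A, PTGES2, PTGDS, PLA2G4C and ADORA2A at 48H lost theirs too. The direction changed only for log2 fold changes that did not pass, when a library was left out. At 24H these ran from −0.0628 to 0.0538 for ECE1, −0.0288 to 0.0584 for DDAH2, −0.0730 to 0.38 for PTGS1, −0.0348 to 0.0089 for FURIN, −0.0219 to 0.0933 for ASS1, −0.13 to 0.0269 for GCH1, −0.27 to 0.0104 for PLA2G4C and −0.60 to 0.0292 for PTGDS. For PTGS2 it ran from −0.98 to 0.19 at 48H and from −0.39 to 0.77 between the time-points, and for PTGS1 from −0.19 to 0.26 there. The cause of these losses was not tested. The counts of PTGS1, PTGS2, EDNRB and GUCY1B3 limit what can be seen of them, and DESeq2 gave no adjusted p for PTGS2.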
